A study of Mus musculus with 18 samples.

Results

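Aminoacyl-tRNA synthetases are the enzymes that join each amino acid to its transfer RNA before protein synthesis, and mouse cells carry separate gene sets for the cytosol and for mitochondria. The transcripts described here are those of 36 synthetase genes, 20 cytosolic and 16 mitochondrial, of 56748 genes in the deposited count table. They were taken from a list of symbols by enzyme name and compartment, not by any measured value. The list was chosen with earlier results of these data known. All 36 were found and passed the filter on low counts. Cytosolic symbols are the older ones, apart from Mars1, Farsa and Farsb. The current name of the other cytosolic genes adds a 1, as in Nars1 for Nars.

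The RNA came from RN2, a line of mouse acute myeloid leukemia cells that carry the fusion oncogene MLL-AF9 and a mutant Nras. Each culture was transduced with 1 of 4 lentiviral vectors, and day 5 was the day of the sort. These were nCas9 (a Cas9 nickase), intact BE (a base editor carrying the evoA1 deaminase), its catalytic mutant (the same editor with the deaminase inactivated) and seBE (a base editor switched by a small molecule). For the last 24 h before the sort, intact BE and seBE cells were given rapamycin at 1 nM, or vehicle, and nCas9 and the catalytic mutant had no rapamycin group. Their treatment label says vehicle, while the treatment protocol names intact BE and seBE alone as treated. In seBE rapamycin also serves as the inducer of the switch, so effects of the drug and of the induced editor cannot be told apart. The 6 groups held 3 libraries each, called biological replicates in the labels. Nothing states that they came from separate cultures, so p-values measure the spread between these libraries. All groups share the line, the lentiviral delivery and the sort, so none is an untransduced control. The study looked for effects of base editors on gene expression that could bear on their toxicity.

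Synthetases fall into class I and class II by the fold of their active site, and in the cytosol several of them sit together in the multisynthetase complex. Gars (glycine) and Kars (lysine) each make the cytosolic and the mitochondrial enzyme from 1 gene, and mitochondria charge glutamine tRNA by a roundabout route with no partner of Qars. When charged tRNA runs short, the kinase Gcn2 (gene Eif2ak4) phosphorylates the initiation factor eIF2, and translation of the transcription factor ATF4 rises. ATF4 raises many cytosolic synthetase genes and genes of amino acid synthesis, and mTORC1, the kinase complex that rapamycin inhibits, also promotes ATF4 output.

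Library totals ran from 13835979 to 23284932 counts. The lowest count of a cytosolic member in any library was 1232 (Wars) and that of a mitochondrial member 99 (Pars2). Markers of the line were present, with means over all libraries of 386 CPM (counts scaled to a common TMM-adjusted library size) for Ptprc, 567 for Elane and 295 for Hoxa9. Of 13 markers of lymphocytes, erythroid cells, fibroblasts, endothelium and epithelium, Cd3e, Cd8a, Col1a2, Dcn, Kdr and Krt8 had no count in any library and the others had means under 0.6 CPM. Catalytic mutant replicate 3 stood apart in Lars2, as described below. In bulk RNA, fewer cells carrying a transcript and less of it per cell cannot be told apart.

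Per length of transcript, every cytosolic synthetase was more abundant than 15 of the 16 mitochondrial ones. In CPM per kb of the principal transcript, averaged over 18 libraries, cytosolic levels ran from 30.0 (Cars, cysteine) through a median of 54.9 to 133 (Nars, asparagine). Mitochondrial levels ran from 2.55 (Mars2, methionine) to 29.6 (Tars2, threonine), with Lars2 (leucine) at 454. The Lars2 value is uncertain, because its counts were low in the same libraries as those of another gene, described below. Whether all reads counted for Lars2 came from its own transcript was not tested. The separation is narrow at its edge. Tars2 lay above Cars in the group means of intact BE under rapamycin (25.6 against 20.3), of seBE under vehicle (30.0 against 29.8) and of seBE under rapamycin (30.2 against 27.3). Nars led the cytosolic order in 5 groups and Dars (aspartate) in intact BE under rapamycin.

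**Figure D1:**
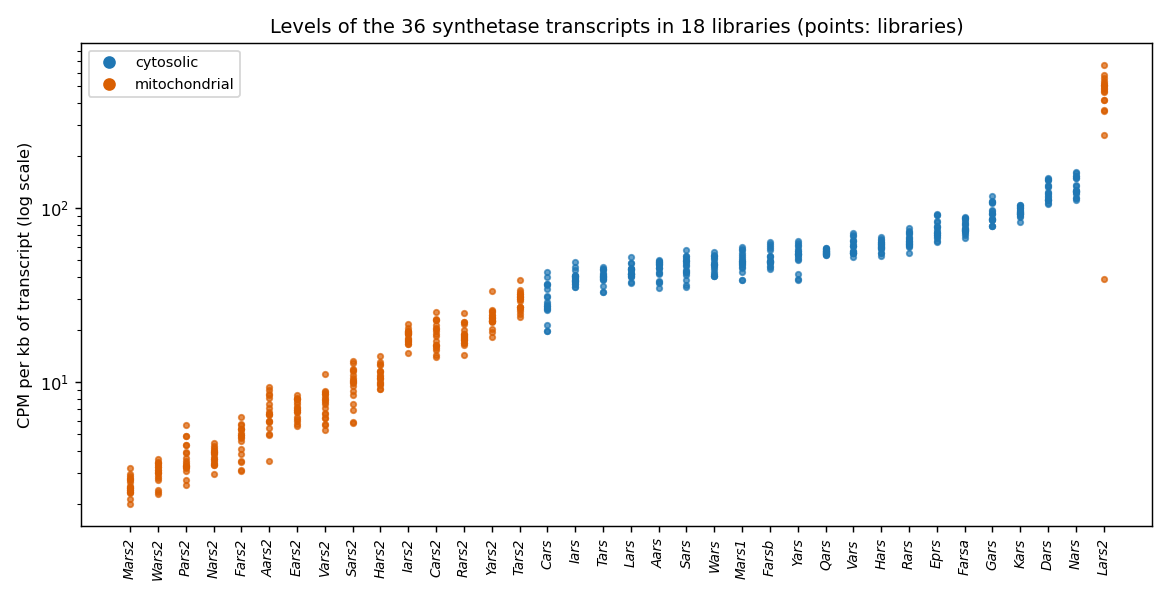
Level of each of the 36 synthetase transcripts in CPM per kb of transcript on a log axis, 1 point per library (18 libraries), ordered by mean. The mitochondrial genes lie left of the cytosolic ones, from Mars2 at a mean of 2.55, except Lars2, whose points run from the highest of all to 1 low library.

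The members differed in how far they moved between groups. Qars was the steadiest, with a highest group mean 1.04 times the lowest, from 153 CPM in nCas9 to 159 CPM in intact BE under vehicle. Kars and Hars (histidine) spanned 1.11-fold. Cars spanned most among cytosolic members, from 65.3 CPM in intact BE under rapamycin to 128 CPM in nCas9 (1.96-fold). Among mitochondrial members the widest span was that of Sars2 (serine), from 11.9 CPM in intact BE under rapamycin to 21.8 CPM in the catalytic mutant (1.82-fold). Intact BE under rapamycin held the lowest group mean for 14 of 20 cytosolic and 8 of 16 mitochondrial members. Intact BE under vehicle held the highest for 10 of the 20 cytosolic members but for 2 of the 16 mitochondrial ones.

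Summed over the 20 genes, cytosolic synthetase RNA took 4069, 4148 and 4063 CPM in the 3 libraries of intact BE under vehicle, above every other library. It took 3459, 3437 and 3441 CPM under rapamycin, below every other library. The other 12 libraries lay from 3483 CPM (seBE under rapamycin, replicate 2) to 3946 CPM (catalytic mutant, replicate 3). The mitochondrial sum without Lars2 was 448, 459 and 456 CPM in intact BE under vehicle and 435, 435 and 423 CPM under rapamycin, against 467 to 544 CPM in the other 12 libraries. Both intact BE groups thus lay below the rest in mitochondrial synthetase RNA, while their cytosolic sums lay at opposite ends. The ratio of the sums was 8.91 to 9.08 in intact BE under vehicle and 6.86 to 8.22 in the other 15 libraries. These sums are descriptions with no test.

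**Figure D2:**
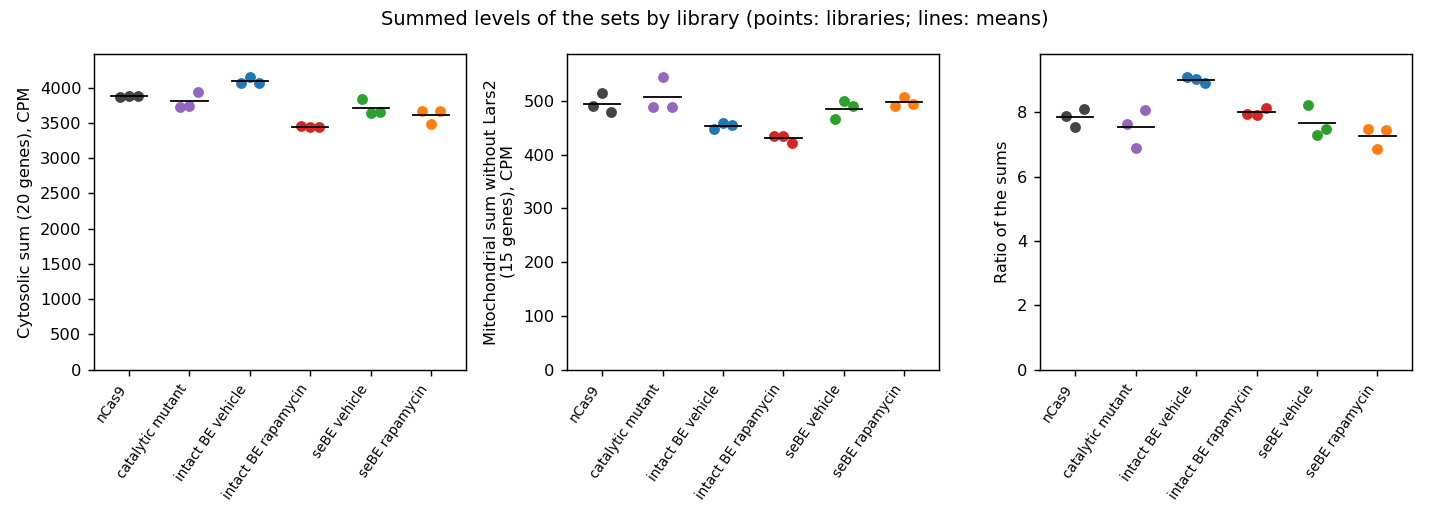
Summed CPM of the 20 cytosolic genes, of the 15 mitochondrial genes without Lars2, and the ratio of the sums, by group, with 1 point per library and a line at the mean. The cytosolic sum is highest in intact BE under vehicle and lowest in intact BE under rapamycin, and the ratio stands above 8.9 only in intact BE under vehicle.

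Rapamycin lowered cytosolic synthetase transcripts in cells with intact BE. Tested with edgeR's quasi-likelihood test and Benjamini-Hochberg adjustment over 14985 genes, 11 of 20 cytosolic members were lower and 0 higher, where 1.34% of all genes tested were lower and 1.98% higher. None of the 16 mitochondrial members passed in this test, with 5 at an unadjusted p under 0.05, and 0 passed under DESeq2. Depth limits the test more in this set, where counts went down to 99 (Pars2). Sars2 stood at -0.37 (adjusted p = 0.256) and Aars2 at -0.36 (adjusted p = 0.276), as large as some called cytosolic changes. Of the 16, 5 were above 0. The median log2 fold change was -0.29 over the cytosolic members, -0.09 over the mitochondrial ones and -0.00 over all genes. In 14 of the 20 cytosolic members every rapamycin library lay below every vehicle library, as for 11.8% of all genes. That held for 3 of 16 mitochondrial members, with 1 in the opposite direction (10.5% of all genes). By structure the 11 calls were 5 of 9 class I and 6 of 10 class II members lower (Eprs, which joins both classes, is counted in neither).

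Nars, the asparagine enzyme, had the smallest adjusted p. It read 417, 445 and 418 CPM under vehicle and 315, 315 and 307 CPM under rapamycin (log2 fold change -0.45 ± 0.0661 (SE), adjusted p = 2.97e-05). Yars, the tyrosine enzyme, read 153, 165 and 159 CPM and then 112, 122 and 114 CPM (log2 fold change -0.46 ± 0.0707 (SE), adjusted p = 6.32e-05). The libraries of the 2 groups were far from overlapping in both genes, with gaps wider than either group's own range. Tars, the threonine enzyme, read 179.9, 184 and 179 CPM under vehicle and 143, 133 and 132 CPM under rapamycin (log2 fold change -0.41 ± 0.0688 (SE), adjusted p = 0.000179). Gars read 255, 257 and 231 CPM and then 188, 187 and 187 CPM (log2 fold change -0.40 ± 0.0681 (SE), adjusted p = 0.000213). Its rapamycin libraries lay within 2 CPM of each other. Aars, the alanine enzyme, read 261, 287 and 281 CPM under vehicle and 199, 217 and 219 CPM under rapamycin (log2 fold change -0.39 ± 0.0722 (SE), adjusted p = 0.00094). Cars read 83.1, 101 and 88.6 CPM and then 63.5, 68.8 and 63.4 CPM (log2 fold change -0.48 ± 0.0935 (SE), adjusted p = 0.00176), the largest change of the 11 on the log2 scale. Mars1, the methionine enzyme that also charges the initiator tRNA, read 149.6, 153 and 147 CPM under vehicle and 126, 113 and 113 CPM under rapamycin (log2 fold change -0.35 ± 0.0736 (SE), adjusted p = 0.00343). None of these 7 genes had overlapping libraries, and all 7 passed in each of 6 fits that left out 1 library.

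The 4 weaker calls were the isoleucine, leucine, serine and phenylalanine enzymes. Iars read 216, 195 and 204 CPM under vehicle and 171, 162 and 169 CPM under rapamycin (log2 fold change -0.29 ± 0.0741 (SE), adjusted p = 0.0178). This call was lost in 4 of 6 fits that left out 1 library, those without intact BE vehicle replicate 1 (adjusted p = 0.0981) or 3 (0.0637) and without rapamycin replicate 1 (0.0532) or 2 (0.0772). Lars read 208, 193 and 191 CPM and then 175, 162 and 148 CPM (log2 fold change -0.29 ± 0.0735 (SE), adjusted p = 0.0182). Sars had a log2 fold change of -0.32 (adjusted p = 0.0182). Farsb, the beta subunit of the phenylalanine enzyme, read 130.2, 127 and 122 CPM and then 101, 101 and 108 CPM (log2 fold change -0.29 ± 0.0818 (SE), adjusted p = 0.0375), while its partner subunit Farsa stood at -0.09 (adjusted p = 0.661). The libraries of the groups did not overlap in these 4 genes either. Farsb shares 9.47% of its exon bases with Sgpp2 on the opposite strand, and Aars 15.1% with other genes including Exosc6 on its own strand, in the GENCODE M21 annotation. Lars and Sars also lost their calls in 4 of 6 fits and Farsb in 5, each with 1 library left out and adjusted p up to 0.130, 0.205 and 0.177, and the count of lower cytosolic members was then 8 or 9. Of all genes 1.38% to 2.56% passed in these fits, against 3.32% in the full fit.

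The other 9 cytosolic members did not pass. Kars read 196, 206 and 210.4 CPM under vehicle and 179.6, 186 and 186 CPM under rapamycin (log2 fold change -0.15 ± 0.0726 (SE), adjusted p = 0.34), while Gars, the other gene that serves both compartments, passed. The difference between the pair was not tested. Eprs, which charges glutamate and proline, had a log2 fold change of -0.17 (adjusted p = 0.241), and Wars (tryptophan) of -0.25 (adjusted p = 0.19). Dars and Qars had log2 fold changes of 0.01 and -0.04. Of the 8 synthetases of the multisynthetase complex 3 were lower (Mars1, Iars and Lars), with a median of -0.16, where 1.34% of all genes were lower.

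**Figure D3:**
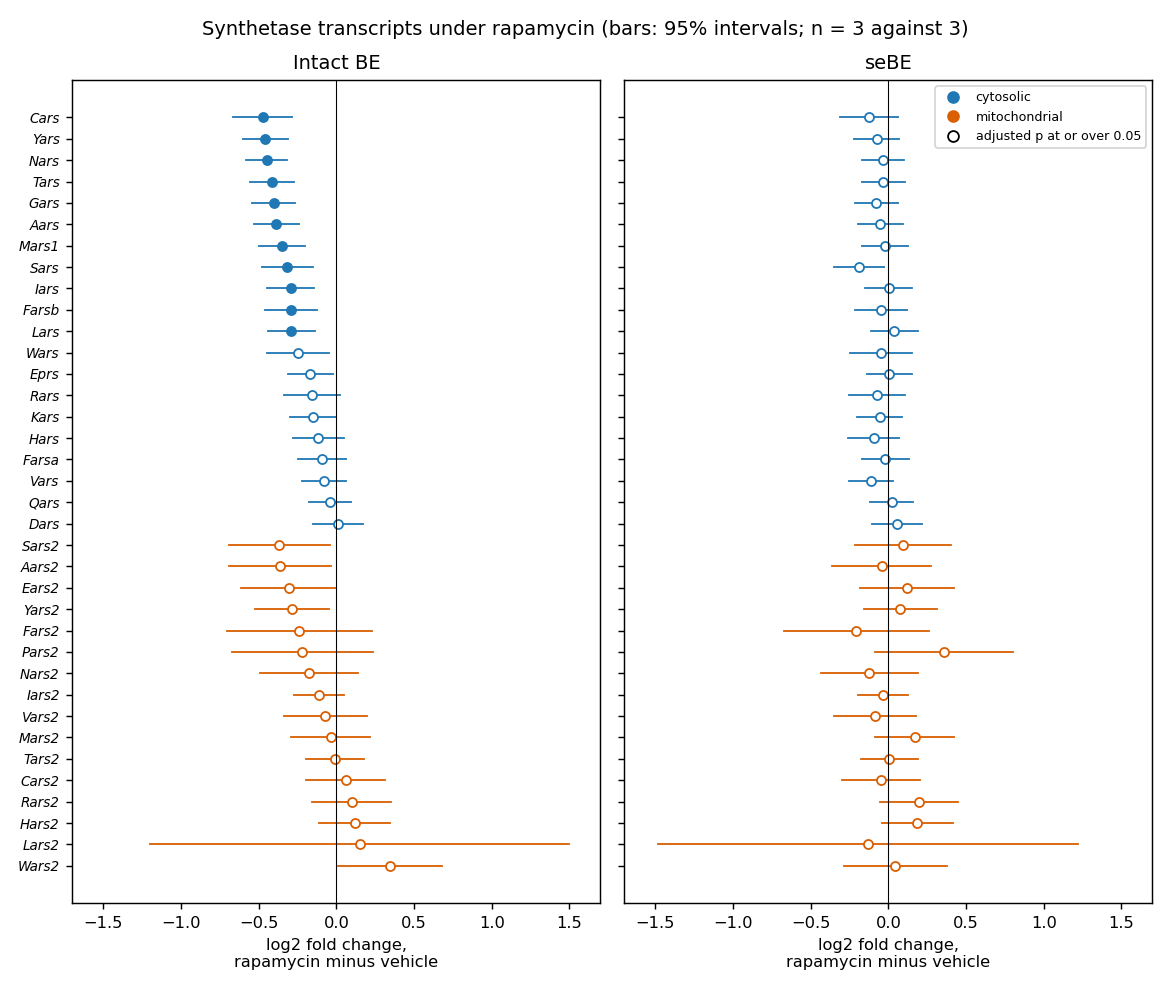
Log2 fold change under rapamycin against vehicle for each member in intact BE (left) and in seBE (right), with 95% intervals and n = 3 against 3. Filled points passed an adjusted p of 0.05: 11 cytosolic and 0 mitochondrial members in intact BE and none in seBE.

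A list of 12 cytosolic genes known as ATF4 targets was written from background knowledge with earlier results of these data known, so its counts are a description. Of its members, 10 were lower, where 1.34% of all genes were, and the median was -0.37. In all 12 every rapamycin library lay below every vehicle library, as for 11.8% of all genes. Of the 8 cytosolic genes outside the list, 1 was lower (Farsb) and the median was -0.10. The difference between these lists was not tested. Of 17 genes of the pathway from uncharged tRNA to ATF4 and its targets, 8 were lower and 0 higher. Of all genes 1.34% were lower and 1.98% higher. Atf4 had group means of 430 CPM under vehicle and 329 CPM under rapamycin (log2 fold change -0.39 ± 0.0697 (SE), adjusted p = 0.000579). Asns, which makes asparagine, stood at 127 and 65.4 CPM (log2 fold change -0.95 ± 0.0892 (SE), adjusted p = 8.36e-09), and Phgdh and Psat1, enzymes of serine synthesis, had log2 fold changes of -0.76 and -0.42. Chac1, which degrades glutathione, fell by 1.75 on the log2 scale. Eif2ak4 stood at 53.1 and 50.4 CPM (log2 fold change -0.08 ± 0.0999 (SE), adjusted p = 0.828). Of 6 genes of cytosolic elongation factors, which bring charged tRNA to the ribosome and move it along, 3 were higher (1.98% of all genes were), namely Eef1b2 (0.42), Eef2 (0.37) and Eef1a1 (0.32). In edgeR's test none of 6 scaffold genes and relatives of the complex, of 5 helpers of mitochondrial charging or of 9 mitochondrial translation factors passed, with 2, 0 and 3 at an unadjusted p under 0.05.

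Promoter sequence was examined for an element that the rule did not use, because the cytosolic members moved together. RefSeq promoter windows on GRCm38.p6, from 250 bases before to 50 after the gene start, were given for 27 members, 13 cytosolic and 14 mitochondrial. The C/EBP-ATF response element was searched as TGATGNAA on both strands. It was found for 5 of 13 cytosolic and 0 of 14 mitochondrial genes, against 3.97% of 32851 mouse windows. Members were counted per gene and the background per window. All 5 genes with a match (Aars, Gars, Iars, Tars and Yars) were lower under rapamycin in intact BE, as were 3 of the 8 cytosolic genes without one (Farsb, Mars1 and Sars). Among all genes tested 1.34% were lower. Nars, Cars and Lars, also lower, had no window and were not searched. A match is a run of letters, not a shown binding site. The E-box CACGTG, bound by MYC and related factors, was found for 4 of 13 cytosolic genes (Aars, Farsb, Iars and Tars) and 1 of 14 mitochondrial genes (Ears2). It was found in 7.15% of all mouse windows.

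The windows below run 5′ to 3′ on the strand of the gene, from 120 bases before to 25 after the start. They show the 5 cytosolic genes with the element, in capitals, and for contrast Mars1, lower under rapamycin with no match, and Qars, the steadiest member, with no match. Positions on GRCm38.p6 are chr8:111033722-111033866 (plus strand) for Aars, chr6:55037881-55038025 (plus) for Gars, chr13:49682010-49682154 (plus) for Iars and chr15:11399634-11399778 (minus) for Tars. They are chr4:129189783-129189927 (plus) for Yars, chr10:127311762-127311906 (minus) for Mars1 and chr9:108507885-108508029 (plus) for Qars.
Aars: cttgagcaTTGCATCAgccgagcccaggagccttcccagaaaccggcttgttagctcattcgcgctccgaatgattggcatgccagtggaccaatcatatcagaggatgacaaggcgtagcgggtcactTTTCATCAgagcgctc
Gars: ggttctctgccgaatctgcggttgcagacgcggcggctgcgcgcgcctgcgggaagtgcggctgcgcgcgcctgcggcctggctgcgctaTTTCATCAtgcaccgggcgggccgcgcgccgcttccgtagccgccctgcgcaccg
Iars: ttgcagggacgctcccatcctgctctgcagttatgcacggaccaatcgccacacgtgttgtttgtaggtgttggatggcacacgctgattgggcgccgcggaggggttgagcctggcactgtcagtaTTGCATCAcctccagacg
Tars: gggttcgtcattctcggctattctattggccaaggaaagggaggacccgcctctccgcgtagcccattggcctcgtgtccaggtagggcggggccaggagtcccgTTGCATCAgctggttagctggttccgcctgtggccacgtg
Yars: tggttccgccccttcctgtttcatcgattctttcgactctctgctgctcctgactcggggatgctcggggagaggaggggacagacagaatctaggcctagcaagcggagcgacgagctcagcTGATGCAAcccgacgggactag
Mars1: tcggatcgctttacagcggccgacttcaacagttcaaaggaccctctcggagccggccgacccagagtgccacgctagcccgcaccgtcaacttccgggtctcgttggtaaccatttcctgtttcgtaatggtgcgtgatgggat
Qars: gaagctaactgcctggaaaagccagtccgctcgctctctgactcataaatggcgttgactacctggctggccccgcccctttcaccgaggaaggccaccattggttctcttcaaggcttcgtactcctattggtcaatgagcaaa
Aars holds 2 matches, with first bases at -112 and 10 from the start, and the others hold 1 each, at -30 in Gars, 8 in Iars, -15 in Tars and 4 in Yars. In Aars, Gars, Iars and Tars the element reads on the opposite strand, so the printed letters are its reverse complement, TTGCATCA or TTTCATCA.

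The same drug, there together with induction of the editor, gave no called change in seBE. Of all 14985 genes, 0% passed in edgeR's test, with 493 at an unadjusted p under 0.05, 1 of them a cytosolic member (Sars, -0.19 (adjusted p = 0.999)) and none mitochondrial. DESeq2 called 1 gene, no member. The median log2 fold change was -0.05 over the cytosolic members, 0.03 over the mitochondrial ones and 0.00 over all genes. The libraries did not overlap in 1 cytosolic member, lower under the drug (4.42% of all genes were so, and 3.64% higher). Nars read 368, 342 and 343 CPM under vehicle and 347, 339.8 and 342 CPM under rapamycin, a log2 fold change of -0.03 (95% interval -0.17 to 0.10). Yars read 161, 156 and 159 CPM and then 158, 146 and 148 CPM, with -0.08 (95% interval -0.22 to 0.07). The groups overlapped in both genes. Tars read 176, 161 and 162 CPM and then 165, 155 and 168 CPM, with -0.03 (95% interval -0.17 to 0.11). Gars read 221, 206 and 219 CPM and then 202, 204 and 206 CPM, with -0.08 (95% interval -0.22 to 0.06). The groups overlapped in these genes as well. Kars had -0.06 (95% interval -0.20 to 0.09). Asns stood at 101 and 90.9 CPM (log2 fold change -0.15 ± 0.0883 (SE), adjusted p = 0.999), Atf4 at 445 and 419 CPM (log2 fold change -0.09 ± 0.0695 (SE), adjusted p = 0.999) and Eif2ak4 at -0.01.

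In seBE the drug effect comes together with induction of the editor. The difference between the drug effects was tested as an interaction, the effect in seBE minus that in intact BE. It was positive in 19 of 20 cytosolic members, with a median of 0.22, and in 12 of 16 mitochondrial ones, with a median of 0.07. Nars alone passed among the 36 (log2 fold change 0.42 ± 0.0933 (SE), adjusted p = 0.0468), where 0.187% of all genes passed, 0.0734% in its direction and 0.113% in the other. The median over all genes was 0.01. That call held in 1 of 12 fits without 1 library, the one without seBE rapamycin replicate 1, and in the other 11 the adjusted p was 0.0596 to 0.247. The share of all genes that passed ran from 0.0708% to 0.359% over the 12 fits. Gars stood at 0.32 (adjusted p = 0.252) and Kars at 0.09 (adjusted p = 0.946). DESeq2 called 4 cytosolic members, all higher, Gars among them, and 0.855% of all genes. With the part of the fold change that follows transcript length and GC content taken out (the length and GC trend) the count was also 4. Of all genes 0.487% then passed. Of the pathway genes Asns passed (log2 fold change 0.80 ± 0.125 (SE), adjusted p = 0.00176), while Atf4 (0.30) and Eif2ak4 (0.06) did not.

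**Figure D4:**
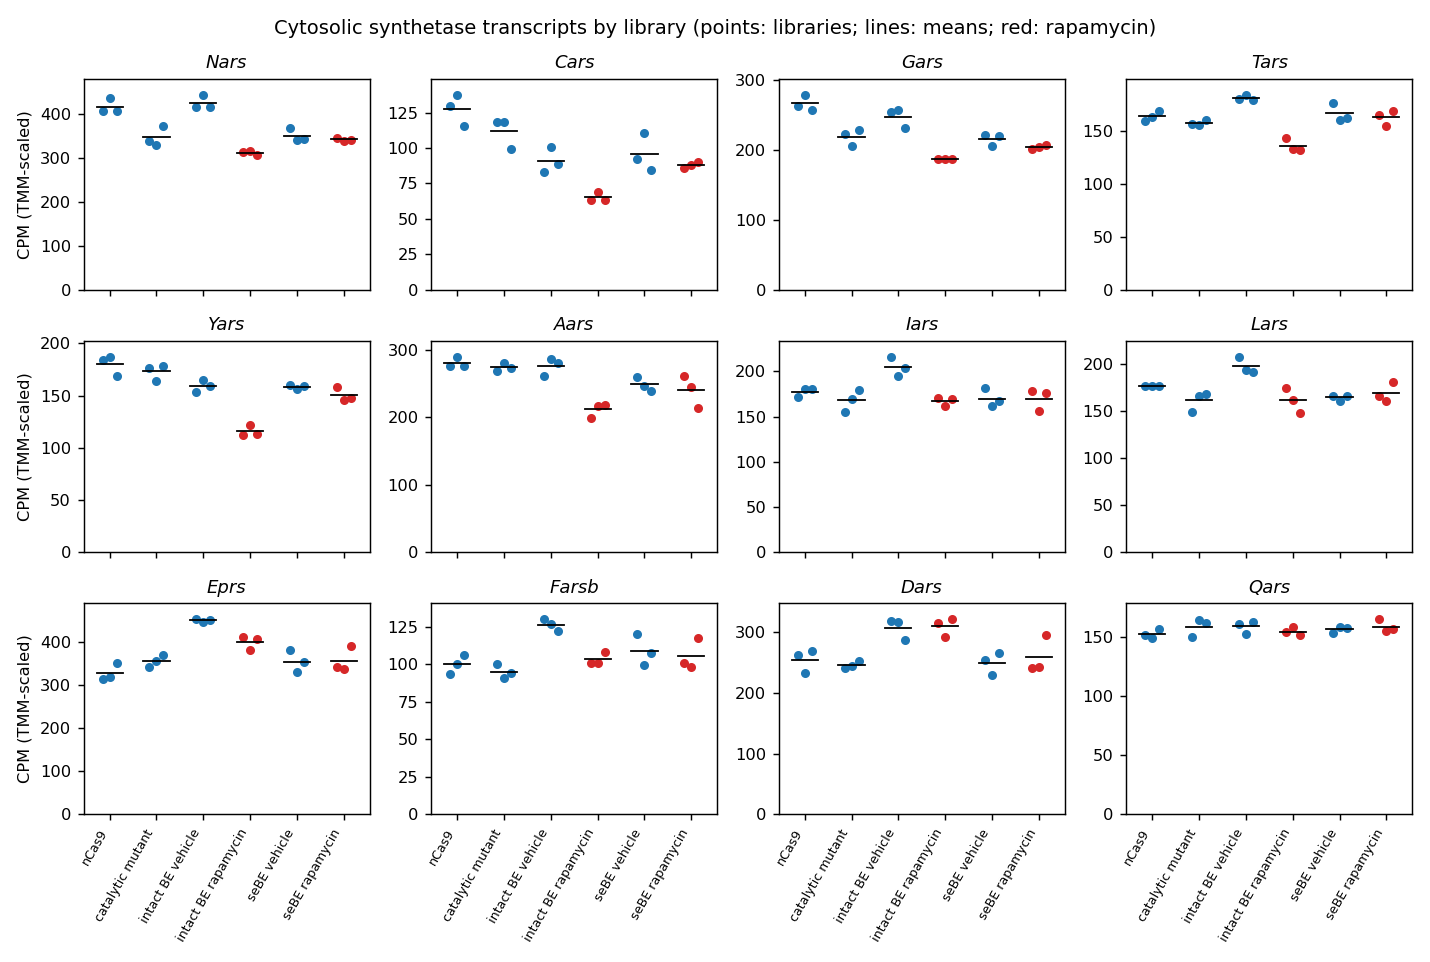
CPM of 12 cytosolic members in every library, by group, with a line at the mean and rapamycin groups in red. Nars, Cars, Gars, Tars, Yars and Aars have rapamycin libraries wholly below the vehicle libraries in intact BE and overlapping them in seBE, and Qars stays between 149.6 and 166 CPM in all 18 libraries.

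Set side by side under rapamycin, seBE held 3 of 20 cytosolic members higher than intact BE and 0 lower, with 2.04% of all genes higher and 2.66% lower. The seBE libraries lay wholly above those of intact BE in 6 cytosolic and 7 mitochondrial members and wholly below in none, where 9.54% of all genes were above and 10.0% below. The medians were 0.09 (cytosolic), 0.24 (mitochondrial) and 0.01 (all genes). These were Yars (log2 fold change 0.38 ± 0.0705 (SE), adjusted p = 0.00109), Cars (log2 fold change 0.43 ± 0.093 (SE), adjusted p = 0.00445) and Tars (log2 fold change 0.26 ± 0.0686 (SE), adjusted p = 0.0221). Without 1 library the count ran from 2 to 6, where 1.65% to 7.17% of all genes passed, against 4.69% in the full fit. Tars lost its call without seBE replicate 1 (adjusted p = 0.0508) and without intact BE replicate 2 (0.0662) or 3 (0.0967). Gars stood at 0.13 (adjusted p = 0.328) and Kars at 0.03 (adjusted p = 0.883). Of the mitochondrial members 2 of 16 were higher. Sars2 read 24.0, 22.1 and 16.6 CPM in seBE and 11.1, 13.9 and 10.9 CPM in intact BE (log2 fold change 0.81 ± 0.156 (SE), adjusted p = 0.00148). Aars2, for alanine, read 22.0, 27.2 and 21.5 CPM and 16.9, 16.6 and 11.8 CPM (log2 fold change 0.65 ± 0.159 (SE), adjusted p = 0.0129). The groups did not overlap in either gene, and without intact BE replicate 3, the lowest library, Aars2 was at 0.50 with an adjusted p of 0.118 and without seBE replicate 2 at 0.53 with 0.111. Genes encoded in mitochondrial DNA took 2.99, 4.61 and 3.15% of counts in seBE and 2.25, 2.08 and 1.99% in intact BE under rapamycin, and their part in the result was not tested. Of the 17 pathway genes 7 were higher in seBE, including Asns (log2 fold change 0.47 ± 0.0889 (SE), adjusted p = 0.00114), Sesn2 (0.54), Atf4 (log2 fold change 0.35 ± 0.0696 (SE), adjusted p = 0.00199) and Phgdh (0.37), with Eif2ak4 at 0.02. The elongation factors Eef1a1 (-0.38), Eef2 (-0.40) and Eef1b2 (-0.25) were lower and Eef1d (0.33) higher. Mtfmt, which formylates the mitochondrial initiator tRNA, was higher at 0.45, 1 of 5 charging helpers.

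Under vehicle, seBE held 5 of 20 cytosolic members lower than intact BE and 0 higher, where 2.32% of all genes were lower, and 1 of 16 mitochondrial members higher, where 1.68% were. The seBE libraries lay wholly below those of intact BE in 10 cytosolic members and above in 1, and wholly above in 6 mitochondrial members, against 15% of all genes below and 14.4% above. The medians were -0.11 (cytosolic), 0.06 (mitochondrial) and 0.01 (all genes). Eprs read 380.4, 329 and 353 CPM in seBE and 453, 446 and 449.6 CPM in intact BE (log2 fold change -0.34 ± 0.0714 (SE), adjusted p = 0.00688). Nars (log2 fold change -0.28 ± 0.0661 (SE), adjusted p = 0.0151), with the libraries given above, did not overlap. Dars read 255, 229.8 and 266 CPM and 319, 317 and 287 CPM (log2 fold change -0.30 ± 0.0793 (SE), adjusted p = 0.0302). Iars read 182, 161 and 167 CPM and 216, 195 and 204 CPM (log2 fold change -0.27 ± 0.0743 (SE), adjusted p = 0.0323). Lars read 166, 161 and 167 CPM and 208, 193 and 191 CPM (log2 fold change -0.26 ± 0.0737 (SE), adjusted p = 0.0374). Of these 5, all but Nars belong to the multisynthetase complex, whose 8 members were all below 0 with a median of -0.18. Cars2, the mitochondrial cysteine enzyme, read 33.0, 43.4 and 38.2 CPM in seBE and 26.6, 29.8 and 29.3 CPM in intact BE (log2 fold change 0.42 ± 0.126 (SE), adjusted p = 0.0482). Gars stood at -0.20 (adjusted p = 0.0849) and Kars at -0.06 (adjusted p = 0.762). With 1 library left out, 0 to 3 cytosolic and 0 or 1 mitochondrial members passed. Cars2 lost its call in 5 of 6 such fits and Lars in 6. Mitochondrially encoded genes took 2.66, 4.10 and 2.80% of counts in seBE and 2.02, 1.84 and 1.78% in intact BE under vehicle, and their part in the result was not tested. Every cytosolic call was lost without seBE replicate 2, where Eprs was at adjusted p = 0.0936, and 1 was kept without intact BE replicate 1 or replicate 2. The share of all genes that passed fell as well, from 3.99% in the full fit. It was 0.332% without seBE replicate 2, and 0.344% and 1.23% without intact BE replicate 1 and replicate 2. With the length and GC trend removed the count was 2, with Eprs at -0.20 (adjusted p = 0.0565) and Gars past the threshold (0.0465). Of all genes 2.06% then passed. Of the pathway genes Asns was lower (log2 fold change -0.33 ± 0.0882 (SE), adjusted p = 0.0313), with Atf4 at 0.05 and Eif2ak4 at -0.05.

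Against nCas9, intact BE under vehicle held 4 cytosolic members higher and 1 lower, and 1 mitochondrial member higher and 5 lower. In this comparison 23.0% of all genes passed, 13.1% higher and 9.83% lower, so the cytosolic share (25%) lay near that of all genes, and the mitochondrial share was 37.5%. The medians were 0.10 (cytosolic), -0.14 (mitochondrial) and -0.04 (all genes). Eprs read 315, 317 and 352 CPM in nCas9, below every intact BE library (log2 fold change 0.45 ± 0.0715 (SE), adjusted p = 2.14e-05). Farsb read 93.7, 99.95 and 106 CPM in nCas9 (log2 fold change 0.34 ± 0.0822 (SE), adjusted p = 0.00244), and Dars 262, 233 and 269.8 CPM (log2 fold change 0.27 ± 0.0792 (SE), adjusted p = 0.0113). Iars read 171, 181 and 181 CPM (log2 fold change 0.21 ± 0.0741 (SE), adjusted p = 0.0381). All 4 stood higher in every intact BE library, and Dars lost its call without nCas9 replicate 2 (adjusted p = 0.0928). Cars went the other way, with 129, 138 and 116 CPM in nCas9 (log2 fold change -0.49 ± 0.0924 (SE), adjusted p = 0.000184). Gars stood at -0.11 (adjusted p = 0.277) and Kars at 0.14 (adjusted p = 0.177). Iars lost its call in 4 of 6 fits with 1 library left out (adjusted p up to 0.161), and without nCas9 replicate 2 the cytosolic count was 3. Of all genes 16.3% passed without that library. Over all members, intact BE lay wholly above nCas9 in 7 cytosolic and 1 mitochondrial member and wholly below in 4 and 7, where 19.8% of all genes were above and 18.2% below.

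Of the 6 mitochondrial calls in that comparison 5 were lower in intact BE, and 11 of the 16 members had a negative log2 fold change. Iars2, the isoleucine enzyme, was the call in the other direction, with 80.0, 91.0 and 90.3 CPM in nCas9 and 106, 117 and 111 CPM in intact BE (log2 fold change 0.36 ± 0.0801 (SE), adjusted p = 0.00118). In GENCODE M21, 24.2% of its exon bases overlap other genes on the opposite strand (Rab3gap2 among them), and whether the counts used strand is not given in the sources used here. Hars2 read 43.2, 47.1 and 38.3 CPM and 32.4, 30.4 and 33.0 CPM (log2 fold change -0.42 ± 0.114 (SE), adjusted p = 0.00588). Cars2 read 43.0, 37.4 and 35.2 CPM in nCas9 (log2 fold change -0.43 ± 0.125 (SE), adjusted p = 0.0105). Tars2 read 76.5, 76.9 and 75.3 CPM and 58.7, 61.8 and 64.9 CPM (log2 fold change -0.30 ± 0.0907 (SE), adjusted p = 0.0137). Vars2, the valine enzyme, read 39.5, 36.1 and 33.0 CPM and 25.5, 28.9 and 27.4 CPM (log2 fold change -0.41 ± 0.131 (SE), adjusted p = 0.0211), and Aars2 24.9, 30.1 and 23.6 CPM and 19.9, 18.2 and 19.9 CPM (log2 fold change -0.44 ± 0.159 (SE), adjusted p = 0.0441). Opposite-strand overlap takes 4.56% of the exon bases of Hars2, 5.83% of Cars2 and 8.52% of Vars2. None of these 6 genes had overlapping libraries. With 1 library left out, Hars2 and Iars2 passed in all 6 fits, Tars2 in 5, Cars2 in 4, Vars2 in 2 and Aars2 in 1, and the count was 2 without intact BE replicate 1 and 3 without nCas9 replicate 1. Of all genes 14.8% passed without intact BE replicate 1 and 16.7% without nCas9 replicate 1, against 23.0% in the full fit. With the length and GC trend removed Iars2 stood at 0.18 (adjusted p = 0.0702), Iars at 0.09 (0.366) and Aars2 at -0.32 (0.134), none of them past the threshold. The share of counts from genes encoded in mitochondrial DNA moved along with this set. It was 5.54, 5.33 and 4.43% in nCas9 and 2.02, 1.84 and 1.78% in intact BE under vehicle, and its part in the result was not tested. Of 9 mitochondrial translation factors Gfm1 was higher (0.43) and Mtif3 lower (-0.47). Of the 17 pathway genes 8 were lower (9.83% of all genes were), among them Ddit3 (-1.32), Atf4 (log2 fold change -0.40 ± 0.0695 (SE), adjusted p = 6.2e-05), Nupr1 (-1.58) and Asns (log2 fold change -0.31 ± 0.0874 (SE), adjusted p = 0.00783), with Eif2ak4 at -0.02. Of the elongation factors Eef1b2 (-0.32) and Eef1d (-0.25) were lower. Xpot, which exports tRNA from the nucleus, was higher (0.24).

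Against the catalytic mutant, which differs from intact BE in the deaminase, intact BE under vehicle held 7 cytosolic members higher and 2 lower, and 0 mitochondrial members higher and 5 lower. The background was 21.0% of all genes, 11.6% higher and 9.33% lower. Intact BE lay wholly above the mutant in 8 cytosolic and 1 mitochondrial member and wholly below in 2 and 5, against 20.1% and 17.7% of all genes. The medians were 0.06 (cytosolic), -0.18 (mitochondrial) and -0.03 (all genes). Farsb read 99.95, 90.6 and 94.3 CPM in the mutant (log2 fold change 0.41 ± 0.0826 (SE), adjusted p = 0.000521), Eprs 341, 357 and 369 CPM (log2 fold change 0.34 ± 0.0714 (SE), adjusted p = 0.000856) and Nars 339.6, 329 and 374 CPM (log2 fold change 0.30 ± 0.0661 (SE), adjusted p = 0.00147). Dars read 241, 244 and 253 CPM (log2 fold change 0.32 ± 0.0794 (SE), adjusted p = 0.00328), Lars 149, 166 and 169 CPM (log2 fold change 0.29 ± 0.0738 (SE), adjusted p = 0.00434) and Iars 155, 169 and 179 CPM (log2 fold change 0.29 ± 0.0744 (SE), adjusted p = 0.00476). Tars read 157, 156 and 160.5 CPM (log2 fold change 0.20 ± 0.0689 (SE), adjusted p = 0.0349). All 7 stood higher in every intact BE library than in any mutant library. Tars lost its call in all 6 fits with 1 library left out (adjusted p 0.0534 to 0.128), and Cars, described next, in 4 of 6 (0.0562 to 0.123). Cars read 118, 118 and 99.2 CPM in the mutant (log2 fold change -0.30 ± 0.0928 (SE), adjusted p = 0.0169), with overlap, and Vars, the valine enzyme, 287, 289 and 299 CPM against 228, 235 and 249.8 CPM in intact BE (log2 fold change -0.30 ± 0.0707 (SE), adjusted p = 0.00256). Gars stood at 0.18 (adjusted p = 0.0619) and passed under DESeq2 (adjusted p = 0.0295). Kars stood at 0.05 (adjusted p = 0.71).

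Cars2 read 39.0, 48.1 and 40.5 CPM in the mutant (log2 fold change -0.58 ± 0.126 (SE), adjusted p = 0.00111) and Vars2 35.6, 49.1 and 37.9 CPM (log2 fold change -0.59 ± 0.131 (SE), adjusted p = 0.00147). Tars2 read 78.7, 92.5 and 73.5 CPM (log2 fold change -0.40 ± 0.0909 (SE), adjusted p = 0.00164), and Sars2 21.8, 24.8 and 18.7 CPM against 13.0, 17.6 and 15.6 CPM in intact BE (log2 fold change -0.50 ± 0.157 (SE), adjusted p = 0.0193). Aars2 read 19.8, 31.3 and 28.4 CPM (log2 fold change -0.46 ± 0.16 (SE), adjusted p = 0.0376), with overlap. The highest mutant library was replicate 2 in all 5 genes, and without it, or without intact BE replicate 1, the mitochondrial count was 3, with Sars2 (adjusted p = 0.138 and 0.151) and Aars2 (0.258 and 0.0849) not passing. Of all genes 13.4% and 10.6% passed in these fits with 1 library left out. Aars2 lost its call in 5 of 6 such fits (adjusted p 0.0661 to 0.258). With the length and GC trend removed 10.5% of all genes passed, against 21.0% in the full fit. The counts were then 5 cytosolic and 2 mitochondrial, Eprs stood at 0.09 (adjusted p = 0.384) and Dars at 0.14 (0.162), and Vars turned to 0.04. Lars (0.17, adjusted p = 0.0787), Tars (0.06, 0.621), Cars (-0.17, 0.213), Vars2 (-0.33, 0.0521), Sars2 (-0.14, 0.638) and Aars2 (-0.11, 0.746) lost their calls as well, and Gars passed (0.21, 0.0198). Mitochondrially encoded genes took 3.73, 5.47 and 4.39% of counts in the mutant, and their part in the result was not tested. Of the pathway genes Asns (log2 fold change 0.36 ± 0.0885 (SE), adjusted p = 0.00311), Eif2s1 (0.29), a subunit of eIF2, and Cebpg (0.30) were higher and Ddit3 (-0.96) and Gcn1 (-0.25) lower, with Atf4 at -0.06 and Eif2ak4 at 0.01. Aimp2, a scaffold of the multisynthetase complex, was lower (-0.35) and Xpot higher (0.25). Eef1d was lower (-0.35), and of the mitochondrial translation factors Tufm (-0.36) and Mtif3 (-0.35) were lower and Gfm1 (0.36) higher.

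The catalytic mutant itself differed from nCas9 in 3 cytosolic members and no mitochondrial one, where 4.30% of all genes passed, 2.24% higher and 2.06% lower (2 mitochondrial members had an unadjusted p under 0.05, and DESeq2 called 1). Gars read 223, 206 and 229 CPM in the mutant and 263, 279 and 258 CPM in nCas9 (log2 fold change -0.28 ± 0.0681 (SE), adjusted p = 0.0124). Nars read 407, 438 and 407 CPM in nCas9 (log2 fold change -0.26 ± 0.0661 (SE), adjusted p = 0.0165). Vars read 251, 231 and 249 CPM in nCas9 (log2 fold change 0.26 ± 0.0706 (SE), adjusted p = 0.0291). None of the 3 overlapped (11.2% of all genes lay wholly above nCas9 and 10.1% below), but 0 passed without nCas9 replicate 2 or without mutant replicate 2, and Vars stood at -0.0016 after removal of that trend on length and GC. Of all genes 0.784% passed without nCas9 replicate 2 and 2.89% without mutant replicate 2. Kars stood at 0.09 (adjusted p = 0.562). Of the pathway genes 6 were lower, among them Asns (log2 fold change -0.68 ± 0.0883 (SE), adjusted p = 8.3e-05), Atf4 (log2 fold change -0.34 ± 0.0695 (SE), adjusted p = 0.00423) and Cebpg (-0.39), and Gcn1, which activates Gcn2, was higher (0.36), with Eif2ak4 at -0.03.

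Under vehicle, seBE held 4 cytosolic members lower than nCas9, 0 higher, and 0 of 16 mitochondrial members passed in edgeR's test (2 had an unadjusted p under 0.05, and DESeq2 called 0), where 1.93% of all genes were lower and 2.64% higher. They were Gars (log2 fold change -0.31 ± 0.068 (SE), adjusted p = 0.00704), Cars (log2 fold change -0.41 ± 0.0923 (SE), adjusted p = 0.00769), Nars (log2 fold change -0.25 ± 0.066 (SE), adjusted p = 0.0243) and Mars1 (log2 fold change -0.28 ± 0.0734 (SE), adjusted p = 0.0245), all among the 12 linked to ATF4. Cars read 92.6, 110.3 and 84.7 CPM in seBE and Mars1 139.7, 147 and 133 CPM, against 170.0, 175 and 163 CPM for Mars1 in nCas9. No library of 1 group reached the other in these 4 genes. That was so for 8 cytosolic members below nCas9 and 3 above, and for 1 mitochondrial member each way, where 10.7% of all genes were below and 11.8% above. The median over the 12 was -0.18 and over the other 8 it was 0.12. That list was written with earlier results known, and not every comparison split this way. For intact BE against nCas9, 25% of each list passed, with medians of 0.005 and 0.135. Against the mutant, intact BE held 5 of the 12 higher and 1 lower, and 2 of the 8 higher and 1 lower. In seBE against intact BE, 4 of the 12 and 1 of the 8 were lower under vehicle. Under rapamycin 3 and 0 were higher. The mutant against nCas9 had 2 of the 12 lower and 1 of the 8 higher. All 4 calls were lost without nCas9 replicate 2, where Gars was at adjusted p = 0.0709, and removal of the length and GC trend gave 7 lower members. Of all genes 1.06% and 5.37% passed in these fits, against 4.56% in the full fit. Over the 6 fits with 1 library left out, Nars lost its call in 5, Mars1 in 4, Cars in 3 and Gars in 1. The cytosolic count was 1 without seBE replicate 1 or replicate 3, where 0.778% and 1.39% of all genes passed. Kars stood at 0.08 (adjusted p = 0.634). Of the pathway genes 7 were lower, among them Asns (log2 fold change -0.64 ± 0.088 (SE), adjusted p = 5.15e-05), Nupr1 (-1.94), Atf4 (log2 fold change -0.35 ± 0.0695 (SE), adjusted p = 0.00273) and Chac1 (-1.16), with Eif2ak4 at -0.07. The comparisons share libraries: of the 9, nCas9 enters 3 and intact BE under vehicle 5, so they are not independent of each other.

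Lars2 had a pattern of its own. Its CPM was 2184, 1433 and 1404 in nCas9, 2102, 1831 and 153 in the catalytic mutant, 1920.1, 2264 and 1624 and 2577, 1882 and 1983 in intact BE under vehicle and rapamycin, and 2031, 1807 and 1623 and 1987, 1972 and 1027 in seBE under vehicle and rapamycin. Catalytic mutant replicate 3 lay far below all other libraries, and seBE rapamycin replicate 3 was the next lowest. In these same libraries ENSMUSG00000119584, the gene with the most counts over all libraries and without a symbol in the table used, took 0.153% and 1.25% of the counts, against 1.68% to 3.02% in the other 16. The part of that gene in the Lars2 counts was not tested. Lars2 passed in none of the 9 comparisons, with a smallest adjusted p of 0.660. In 17 of 18 libraries it exceeded the sum of the other 15 mitochondrial members, so the sums above leave it out.

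**Figure D5:**
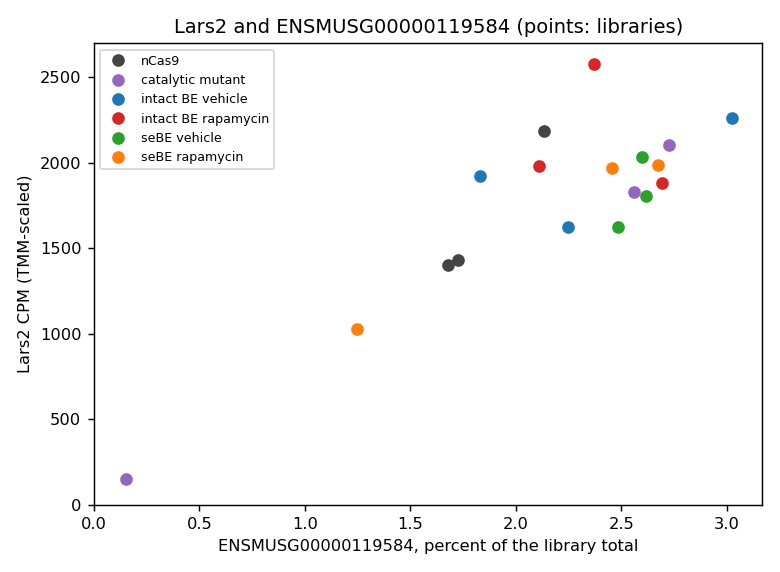
Lars2 CPM against the percent of each library's counts taken by ENSMUSG00000119584, 1 point per library, colored by group. Catalytic mutant replicate 3 is at 153 CPM and 0.153%, and seBE rapamycin replicate 3 at 1027 CPM and 1.25%.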

How the data were processed

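Polyadenylated RNA from 18 libraries (6 groups of 3) was sequenced with a directional kit, per the labels. The authors deposited raw read counts per gene, made with featureCounts (Subread 2.0.3) after fastp 1.0.1, STAR 2.7.1a and SAMtools 1.9 on GRCm39, per the submitters' processing notes, which also name DESeq2. The annotation release, strand setting and handling of multi-mapping reads were not given in the sources used here, so whether reads from overlapping genes on opposite strands were counted apart is not known here.

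Of 56748 gene IDs, 52073 matched a symbol. edgeR 4.0.16 in R 4.3.3 (filterByExpr, TMM, robust quasi-likelihood, 6 group means over 18 libraries) tested 14985 genes holding 99.93% of counts, with a common biological coefficient of variation of 13.3%. Calls have a Benjamini-Hochberg adjusted p under 0.05 over all genes tested. The SE is the log2 fold change over the square root of F. CPM values use TMM-adjusted library sizes, and CPM per kb divides by the length of the APPRIS principal transcript in GENCODE M21 on GRCm38, a build older than that of the counts. Promoter windows are from RefSeq on GRCm38.p6. The procedure was tested on simulated data. A marker of another cell type is not reported here.

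Named first were members past the threshold in at least 3 of 9 comparisons, and the 3 mitochondrial ones with the smallest adjusted p. In each comparison up to 8 called members are named by adjusted p, with Gars and Kars, then up to 4 from each related list with Atf4, Asns and Eif2ak4. Members called beyond the first 8 in 3 comparisons, those at either end of a range, Farsa, Wars and single list members were named in addition, after their values were seen. The members and lists were chosen with earlier results of these data known. Alternatives were a DESeq2 1.42.0 fit on size factors, no filter on low counts, the compared libraries alone, a replicate block, removal of a spline trend (4 degrees of freedom) on length and GC content found for 97.4% of genes, with and without the block, and leaving out each library. Chosen after seeing the data was leaving out nCas9 replicate 2 and catalytic mutant replicate 3 together.

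Replicate numbers were checked for pairing by the correlation of deviations from group means. In seBE under rapamycin and vehicle all 3 same-number correlations were over 0.1 (0.116, 0.292 and 0.408), so these numbers were taken to pair. For replicate 1 the pairing is weak, since a vehicle library of another number correlated more closely with the rapamycin library (0.211). The block, fitted over all 6 groups at once, changed no call there. The main test did not use the pairing, and a paired test of the seBE groups alone was not run. In the other comparisons at least 1 same-number correlation was not over 0.1.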

Additional observations from a re-analysis of the deposited data

Results flagged for a closer look

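The response of Nars to rapamycin differed between the editors by the test of the difference itself, with a drug effect in seBE minus that in intact BE of 0.415 on the log2 scale (95% interval 0.23 to 0.60, adjusted p = 0.0468 by edgeR's quasi-likelihood test). All 3 rapamycin libraries lay below all 3 vehicle libraries in intact BE, and the groups overlapped in seBE, where rapamycin also induced the editor. Among the 36 synthetases it was the only gene past the threshold in that test, and the call held in 1 of 12 fits that left out a library.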

How the results depend on the processing

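The lower cytosolic synthetases under rapamycin in intact BE numbered 11 or 12 under every alternative fit of all 18 libraries or of the compared ones, and 8 to 9 when 1 library was left out, while the mitochondrial count was 0 throughout. Rapamycin in seBE gave 0 in both sets in every fit. By DESeq2 the counts moved to 1 mitochondrial member for the catalytic mutant against nCas9, 5 cytosolic for seBE against intact BE under rapamycin, and 4 cytosolic for the difference between drug effects. Of all genes it called 9.72%, 8.95% and 0.855% in these comparisons. The compared libraries alone gave 2 mitochondrial members for seBE against intact BE under vehicle, where 14% of all genes passed. The replicate block gave 5 cytosolic members for seBE against intact BE under rapamycin, where 7.24% of all genes passed. It changed no other count of members by over 1.5 times. Of single genes it moved Gars past the threshold for intact BE against the mutant (adjusted p = 0.0483). Same-number correlations were over 0.1 in 12 of 24 pairs.

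With the length and GC trend removed, intact BE against the mutant had 5 cytosolic and 2 mitochondrial calls, seBE against nCas9 had 7 cytosolic, seBE against intact BE under vehicle had 2 cytosolic and the difference between drug effects 4 cytosolic. Of all genes 10.5%, 5.37%, 2.06% and 0.487% passed in these comparisons. With the trend removed and the replicate block added, the counts that moved were 1 mitochondrial for the mutant against nCas9, 7 cytosolic and 1 mitochondrial for seBE against nCas9, 5 cytosolic and 4 mitochondrial for seBE against intact BE under rapamycin, and 7 cytosolic for the difference between drug effects. There 3.96%, 8.53%, 8.22% and 1.21% of all genes passed. Direction reversed in 2 genes. Vars stood at -0.0016 (with the replicate block -0.0013) for the mutant against nCas9 and at 0.0403 (0.0406) for intact BE against the mutant, and Kars at -0.0184 (-0.0180) for the latter. The cause was not tested. Leaving out nCas9 replicate 2 and catalytic mutant replicate 3 together gave 3 cytosolic calls for intact BE against nCas9, 0 for the mutant against nCas9 and 0 for seBE against nCas9. The shares of all genes that passed were then 17.8%, 0.258% and 1.64%.

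Without 1 library at a time, cytosolic counts ran from 3 to 6 for intact BE against nCas9, 0 to 3 for the mutant against nCas9, 7 to 9 for intact BE against the mutant, 0 to 4 for seBE against nCas9, 0 to 3 for seBE against intact BE under vehicle, 2 to 6 for that pair under rapamycin and 0 to 1 for the difference between drug effects. Mitochondrial counts ran from 2 to 6, 0 to 1, 3 to 5, 0 to 1, 0 to 1 and 1 to 4 in the same order up to the pair under rapamycin, and were 0 for the difference. The share of all genes that passed varied in these fits too. In the same order it ran from 14.8 to 22.5%, 0.784 to 4.84%, 10.6 to 19.1% and 0.778 to 5.86%. For the last 3 it ran from 0.332 to 3.32%, 1.65 to 7.17% and 0.0708 to 0.359%. Over these alternatives the median of all genes lay between -0.0434 and 0.0191 on the log2 scale. Depth limits the mitochondrial set more: Pars2 had as few as 99 counts in a library, while no cytosolic member had under 1232.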
